A study of Mus musculus with 6 samples.

Results

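Hspa5, Hsp90b1, Pdia3, Pdia4, Pdia6, Calr, Canx, Xbp1, Atf4 and Ddit3 are genes of the endoplasmic reticulum (ER) stress response, and their transcripts were read in mononuclear cells of mouse skeletal muscle. They were picked by name as ER chaperones, disulfide isomerases and transcription factors of the unfolded protein response, and all 10 were found among the 17030 genes of the deposited table. RNA came from 6 male C57BL/B6 mice that carried Lewis lung carcinoma (LLC), a transplanted mouse tumour, and all 6 had floxed alleles of the NF-kB-activating kinase IKKb (IKKbfl/fl). In 3 of them (Pax7 Cre ErT x IKKbfl/fl, called Pax7-CreERT here) a tamoxifen-dependent Cre was driven by Pax7, a gene of muscle satellite cells, and the other 3 (IKKbfl/fl, called controls) had no Cre. Every mouse received tamoxifen on days 10 to 14 after the tumour cells were injected. Pax7 is meant to limit Cre to the satellite cell lineage, while RNA was taken from all the mononuclear cells. As no mouse had Cre without floxed alleles, what Cre does by itself cannot be told apart from the loss of IKKb. The age of the mice is not given in the sources used here, and replicate numbers only name the mice.

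The ER folds secreted and membrane proteins, and unfolded protein there is sensed by IRE1, PERK and ATF6, which together start the unfolded protein response. IRE1 (Ern1) splices the Xbp1 transcript, PERK (Eif2ak3) slows translation while allowing that of Atf4, and cleaved ATF6 enters the nucleus. Their outputs are chaperones, enzymes for disulfide bonds and degradation, and, in prolonged stress, the CHOP protein encoded by Ddit3. Secretory cells such as plasma cells and fibroblasts carry much of this machinery, and muscle adapts it in regeneration and wasting. Gene-level RNA values hold neither the splicing of Xbp1 nor the translation of Atf4, so they read the amount of transcript and not the activity of the response.

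The promoters of these genes show what several of the chaperones share beyond their function. The ER stress response element, ERSE, is CCAAT and, after 9 bases of any kind, CCACG, a pair that NF-Y and ATF6 bind. It was defined on chaperone promoters that include some of these, so finding it here is a description. Windows of 300 bases, from 250 before to 50 after the start annotated by RefSeq on GRCm38.p6, were searched on both strands for all 10 genes. An exact ERSE lay in 5 of the 10 windows, those of Hspa5, Hsp90b1, Pdia6, Calr and Canx, against 39 of all 32851 windows in the RefSeq table (0.119%). Hsp90b1 had 2, on opposite strands. The 5 promoters are given here because they hold the element, written along the gene, with the 2 conserved blocks of each ERSE in capitals (CGTGG and ATTGG where it lies on the other strand).

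Hspa5 promoter, chr2:34771840-34772139 on the plus strand: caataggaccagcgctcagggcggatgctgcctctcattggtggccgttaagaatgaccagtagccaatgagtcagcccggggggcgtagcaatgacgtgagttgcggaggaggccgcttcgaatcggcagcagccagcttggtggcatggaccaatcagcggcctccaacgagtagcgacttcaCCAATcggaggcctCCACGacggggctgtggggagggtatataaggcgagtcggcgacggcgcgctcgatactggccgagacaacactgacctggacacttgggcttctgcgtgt
Hsp90b1 promoter, chr10:86705395-86705694 on the minus strand: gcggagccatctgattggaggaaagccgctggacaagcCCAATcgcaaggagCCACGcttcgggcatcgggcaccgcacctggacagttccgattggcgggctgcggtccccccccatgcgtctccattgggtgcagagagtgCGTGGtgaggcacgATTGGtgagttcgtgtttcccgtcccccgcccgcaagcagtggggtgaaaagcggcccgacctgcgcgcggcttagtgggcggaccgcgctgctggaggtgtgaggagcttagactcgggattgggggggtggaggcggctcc
Pdia6 promoter, chr12:17266339-17266638 on the plus strand: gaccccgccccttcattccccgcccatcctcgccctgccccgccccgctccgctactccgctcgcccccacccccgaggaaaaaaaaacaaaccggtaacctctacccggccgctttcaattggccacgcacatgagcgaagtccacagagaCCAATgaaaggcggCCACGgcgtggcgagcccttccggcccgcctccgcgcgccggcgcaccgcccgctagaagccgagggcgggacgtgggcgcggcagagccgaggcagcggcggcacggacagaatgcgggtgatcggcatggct
Calr promoter, chr8:84846882-84847181 on the minus strand: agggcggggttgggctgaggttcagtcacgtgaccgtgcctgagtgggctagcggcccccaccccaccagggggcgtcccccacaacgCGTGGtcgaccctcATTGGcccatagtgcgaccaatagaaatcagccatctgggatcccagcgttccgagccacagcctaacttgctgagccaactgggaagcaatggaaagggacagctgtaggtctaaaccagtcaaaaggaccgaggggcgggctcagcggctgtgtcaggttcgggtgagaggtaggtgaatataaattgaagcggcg
Canx promoter, chr11:50325624-50325923 on the minus strand: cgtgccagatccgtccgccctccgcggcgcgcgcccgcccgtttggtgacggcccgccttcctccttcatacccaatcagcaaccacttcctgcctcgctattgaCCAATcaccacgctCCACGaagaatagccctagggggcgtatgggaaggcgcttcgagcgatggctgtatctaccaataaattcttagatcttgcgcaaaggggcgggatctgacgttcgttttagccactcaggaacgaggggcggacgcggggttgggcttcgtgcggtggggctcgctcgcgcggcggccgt

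Counted from the annotated start, the element lay from -65 to -47 in Hspa5, from -212 to -194 and from -107 to -89 in Hsp90b1 and from -98 to -80 in Pdia6. In Calr it lay from -162 to -144, on the opposite strand, and in Canx from -145 to -127. The remaining isomerases, Pdia3 and Pdia4, and the 3 transcription factor genes had no exact match in these windows, and the stretch after the annotated start of Pdia4 and Xbp1 was not found in a GENCODE transcript of the gene. The variant called ERSE-II, ATTGG and CCACG with 1 base between them, was in 0 of the 10 windows and in 0.0365% of all. TGACGTG, the core of the unfolded protein response element, was in Hspa5 only, and in 2.01% of all windows. The ATF4 core TGATGNAA was in 0 of 10 and 3.97% of all. The heat shock unit, in which GAA, TTC and GAA, or TTC, GAA and TTC, alternate at intervals of 2 bases, was in 0 of 10 and 0.603% of all.

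**Figure D1:**
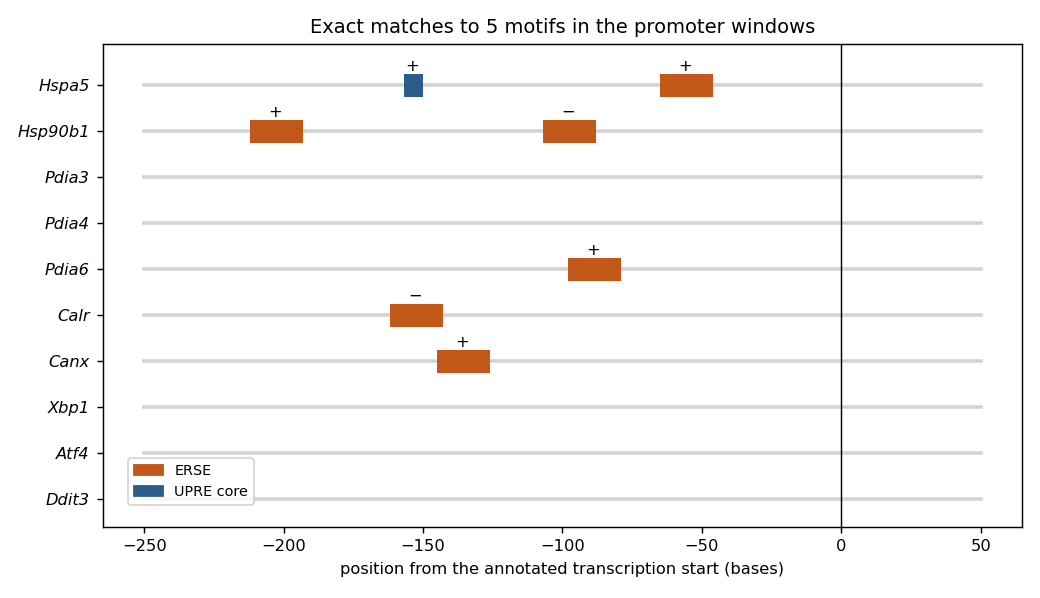
Position of exact motif matches in the promoter windows of the 10 genes, in bases from the annotated start (0 on the axis), with the strand relative to the gene above each box. ERSE (orange) is in 5 genes and 2 times in Hsp90b1, the unfolded protein response core (blue) is in Hspa5, and 5 windows hold no match.

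The values are CPM, read counts scaled to a library total of 1000000. The libraries held an estimated 4054000 to 13355000 reads, and control replicate 3 was the shallowest. Haemoglobin transcripts took 12.6% of that library and 1.84% to 4.83% of the others, which lowers the CPM of all its remaining genes, so results are also given without it and with haemoglobin removed from the total. Every library held markers of mononuclear cells of muscle: those of endothelium (12 of 12 in the table) summed to 7958 to 10799.7 CPM over all 6, while those of T and NK cells (10 of 12, 4 tested) were sparse, at 8.22 to 36.5 CPM. Of 14763 genes tested with limma, 1, Zfp697, passed at an adjusted p under 0.05 (0.00677%).

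Most of the ER stress genes were abundant transcripts, and Atf4, Calr and Hspa5 led their order. Levels between genes were compared as CPM per kilobase of the longest GENCODE principal transcript, as mean and SD over the 6 libraries of both groups. Atf4, the transcription factor translated under stress, stood highest at 444 ± 65.9 CPM per kilobase. It was followed by Calr, the calcium-binding lectin chaperone calreticulin, at 210.4 ± 13.6, and by Hspa5, the lumenal HSP70 known as BiP, at 178 ± 26.4. The ranges of Calr and Hspa5 over the libraries overlapped, and Calr was above Hspa5 in 5 of 6. A middle group held Xbp1 at 70.8 ± 7.28, Hsp90b1 at 57.4 ± 8.42 and Canx at 50.9 ± 4.81 CPM per kilobase, with overlapping ranges between neighbours. Pdia4 at 40.8 ± 2.30 and Ddit3 at 36.2 ± 7.93 followed and overlapped as well. Pdia3 at 12.0 ± 3.19 and Pdia6 at 11.7 ± 2.43 were lowest, and each was above the other in 3 of 6 libraries. Among the 13443 tested genes with a length, Atf4 ranked 59, Calr 152 and Hspa5 184, whereas Pdia3 and Pdia6 ranked 4537 and 4627. How reads were counted is not given in the sources used here, and whether that bears on the low levels of Pdia3 and Pdia6 was not tested.

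Between genotypes, none of the 10 genes passed the test, and 9 of them had overlapping groups. As deposited, all 7 chaperones and isomerases had a higher mean log2 level in the Pax7-CreERT mice and all 3 transcription factors a lower one, but with TMM factors or without haemoglobin Pdia4 and Calr were lower, and with quantile normalization Pdia4 was. The log2 fold changes, on the log2(CPM + 1) scale, ran from -0.19 for Xbp1 to 0.43 for Pdia3, with a median of 0.079, against 0.089 for all tested genes. With TMM factors, the trimmed-mean scaling that sets most genes level, these medians were -0.011 and 0.0060. A log2 fold change above 0 was found in 7 of the 10 and in 68.0% of all genes, and with TMM factors in 5 of the 10 and 51.4% of all. By limma with Benjamini-Hochberg adjustment 0 of 10 passed, and 0 had an unadjusted p under 0.05, where 5.52% of all genes did (4.58% higher and 0.942% lower; 384 genes higher and 301 lower with TMM, where Xbp1 was the 1 member). With this many mice the exact permutation test cannot give a p under 0.1. In these mixed cells, fewer cells of a type and less RNA per cell cannot be told apart.

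**Figure D2:**
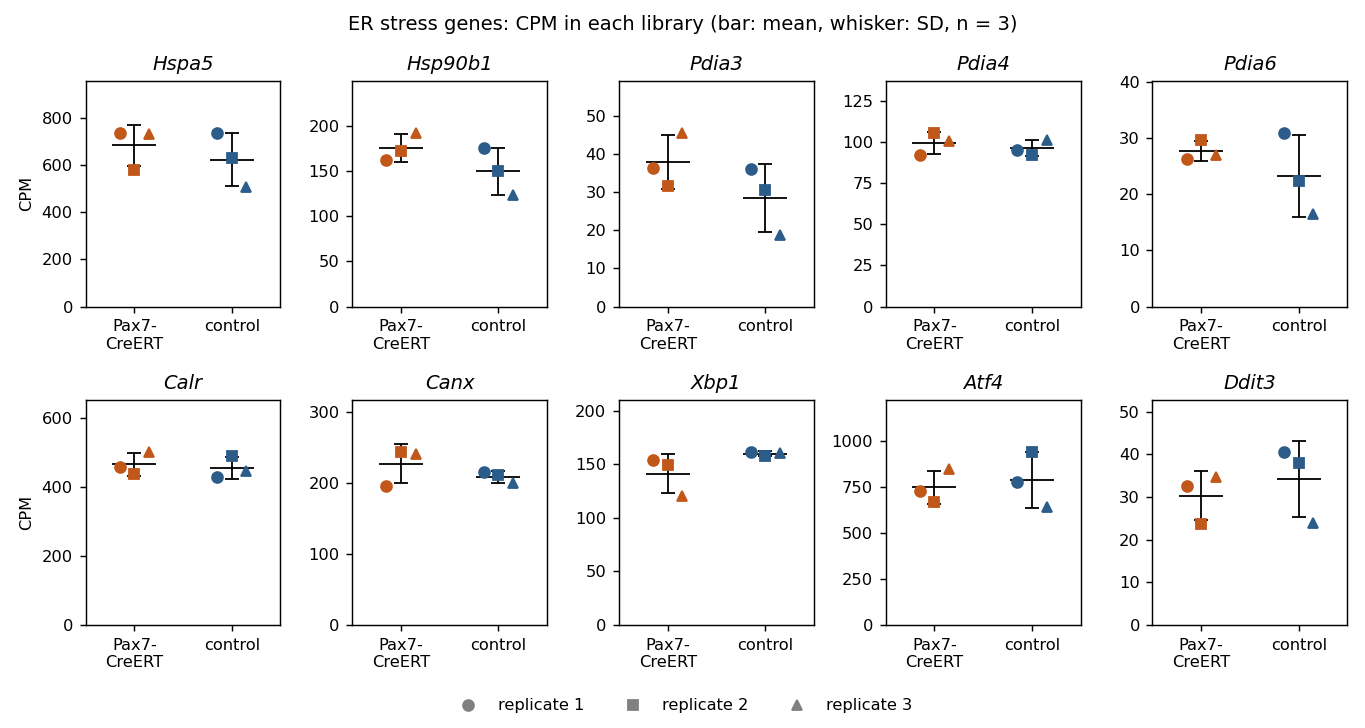
CPM of each gene in each library by genotype, every axis starting at 0; symbols mark the replicate, the bar the mean and the whisker the SD of 3 mice. The groups overlap in every panel but that of Xbp1, and control replicate 3 (blue triangle) is the lowest library for Hspa5, Hsp90b1, Pdia3, Pdia6 and Atf4.

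The HSP70 and HSP90 chaperones of the lumen had overlapping groups and did not pass the test. Gene positions here and below are RefSeq's on GRCm38.p6. Hspa5 (chromosome 2, 34772090 to 34776529), which binds unfolded chains and holds the 3 stress sensors inactive, stood at 736, 581 and 733 CPM with Cre, in the order of replicates 1, 2 and 3, and at 735, 628 and 507 CPM without. A pair of Pax7-CreERT libraries and control replicate 1 lay almost level at the top, and control replicate 3 was lowest. The means were 683 ± 88.7 against 624 ± 114 CPM (SD, n = 3 each), a log2 fold change of 0.14 (95% interval -0.26 to 0.54, SE 0.18, limma adjusted p = 0.937, exact 2-sided permutation p = 0.6). The interval allows a change from -16.6% to 45.5%. Without control replicate 3 the log2 fold change was -0.00066.

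Hsp90b1 (chromosome 10, 86690841 to 86705444), the lumenal HSP90 called GRP94 that folds integrins and Toll-like receptors, stood at 162, 172 and 192 CPM with Cre. The controls gave 175, 149.5 and 123 CPM, the lowest again in replicate 3, and control replicate 1 lay above a pair of Pax7-CreERT libraries. With means of 175 ± 15.3 against 149 ± 26.1 CPM the log2 fold change was 0.24 (95% interval -0.10 to 0.58, SE 0.15, limma adjusted p = 0.896, exact permutation p = 0.3). Leaving out control replicate 3 gave 0.11, and leaving out control replicate 1 gave 0.36. Hsp90b1 stood in a steady proportion to Hspa5 among the controls, with CPM ratios of 0.239, 0.238 and 0.243, and the Pax7-CreERT libraries gave 0.220, 0.296 and 0.262 (exact permutation p = 0.5). The control values lay inside the range of the Pax7-CreERT values.

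Calreticulin and calnexin, the lectin chaperones that hold glycoproteins until they fold, were among the steadiest of the set. Calr (chromosome 8, 84842088 to 84846931) stood at 457, 436 and 502 CPM with Cre and 428, 489 and 446 CPM without. The groups were interleaved, with means of 465 ± 33.7 against 454 ± 31.3 CPM and a log2 fold change of 0.033 (95% interval -0.27 to 0.34, SE 0.14, limma adjusted p = 0.977, exact permutation p = 0.6). Its interval allows a change from -17.0% to 26.1%. Canx (chromosome 11, 50293957 to 50325673), the membrane-bound partner, stood at 196, 244 and 241 CPM with Cre and 215, 211 and 199 CPM without. Pax7-CreERT replicate 1 was the lowest library of all and replicates 2 and 3 the highest, so that the controls lay inside the range of the other group. The means were 227 ± 27.2 against 208 ± 8.24 CPM, with a log2 fold change of 0.12 (95% interval -0.18 to 0.41, SE 0.13, limma adjusted p = 0.925, exact permutation p = 0.4). Leaving out Pax7-CreERT replicate 1 gave 0.22, and leaving out Pax7-CreERT replicate 2 gave 0.059.

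The disulfide isomerases divided into a steady gene, Pdia4, and a variable pair, Pdia3 and Pdia6. Pdia3 (chromosome 2, 121413902 to 121438687), known as ERp57, acts on glycoproteins held by calreticulin and calnexin, and stood at 36.5, 31.6 and 45.6 CPM with Cre and 36.1, 30.7 and 18.7 CPM without. Control replicate 3 was far below the rest and Pax7-CreERT replicate 3 the highest, 2.43 times apart. At the estimated depth the value of control replicate 3 rests on 76 reads, a counting SD of 11.5%. With means of 37.9 ± 7.10 against 28.5 ± 8.88 CPM, Pdia3 had the largest difference of the 10 genes, a log2 fold change of 0.43 (95% interval -0.10 to 0.96, SE 0.24, limma adjusted p = 0.896, exact permutation p = 0.2). Leaving out control replicate 3 gave 0.17, and leaving out Pax7-CreERT replicate 3 gave 0.29.

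Pdia6 (chromosome 12, 17266589 to 17284785) encodes a smaller isomerase that works with BiP, and the Pax7-CreERT libraries held 26.4, 29.7 and 27.1 CPM. The controls spanned the whole range, with 30.9, 22.4 and 16.5 CPM, and held both the highest and the lowest library. The value of control replicate 3 rests on an estimated 67 reads, a counting SD of 12.2%. Means were 27.7 ± 1.72 against 23.3 ± 7.24 CPM and the log2 fold change 0.28 (95% interval -0.19 to 0.75, SE 0.21, limma adjusted p = 0.899, exact permutation p = 0.4), and it was 0.070 without control replicate 3.

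Pdia4 (chromosome 6, 47796141 to 47813512), known as ERp72, varied least. Its levels were 91.8, 105 and 101 CPM with Cre and 95.3, 92.3 and 101 CPM without, so that control replicate 3 was here the highest of its group. The means of 99.3 ± 6.90 against 96.3 ± 4.64 CPM gave a log2 fold change of 0.042 (95% interval -0.23 to 0.31, SE 0.12, limma adjusted p = 0.969, exact permutation p = 0.7), which allows a change from -14.7% to 24.2%. Against Pdia4 in the same library, a measure that the share of haemoglobin does not alter, Pdia3 stood at 0.185 in control replicate 3 and 0.300 to 0.453 in the other 5 libraries. Pdia6 stood at 0.163 against 0.242 to 0.325. Both proportions were lowest in that library. Between genotypes neither ratio differed beyond its spread (exact permutation p = 0.4 and 0.6).

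Xbp1 was the 1 gene of the 10 whose groups did not overlap. Xbp1 (chromosome 11, 5520641 to 5525993) encodes the transcription factor that IRE1 activates by splicing and that drives chaperone, degradation and secretory genes. The libraries held 154, 149 and 120.5 CPM with Cre and 162, 157 and 161 CPM without. The controls lay close together, and the Pax7-CreERT libraries spread down to replicate 3. As deposited, the nearest libraries, Pax7-CreERT replicate 1 and control replicate 2, were 3.06 CPM apart, less than the counting SD of either (4.03 and 4.61 CPM). The means were 141 ± 18.2 against 160.02 ± 2.30 CPM and the log2 fold change -0.19 (95% interval -0.48 to 0.11, SE 0.13, limma adjusted p = 0.899, exact permutation p = 0.1). Groups that did not overlap made up 11.0% of all tested genes, 8.69% with the Pax7-CreERT mice higher and 2.28% with them lower, so 1 of 10 is near the background. With TMM factors the means were 137 ± 15.5 against 165 ± 8.14 and the log2 fold change -0.28, with an unadjusted limma p of 0.0486 and an adjusted p of 0.989. On that scale the same nearest libraries stood at 148 and 158 CPM, so the groups again did not overlap. The share of all genes without overlap was not counted on that scale. Without Pax7-CreERT replicate 3 the log2 fold change was -0.076.

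Atf4 and Ddit3, successive steps of the PERK arm, had overlapping groups, and Ddit3 varied more within them. The coefficient of variation within groups was 16.1% for Atf4 and 22.9% for Ddit3, beside a median of 17.5% for all tested genes. Atf4 (chromosome 15, 80255184 to 80257545), whose protein induces amino acid synthesis and transport genes and Ddit3, stood at 728, 667 and 846 CPM with Cre. The controls held both the highest and the lowest library, with 778, 942 and 639.7 CPM. The means were 747 ± 91.2 against 786 ± 151 CPM, with a log2 fold change of -0.063 (95% interval -0.47 to 0.34, SE 0.18, limma adjusted p = 0.969, exact permutation p = 0.7). Leaving out control replicate 3 gave -0.20 and leaving out control replicate 2 gave 0.076, of opposite sign.

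Ddit3 (chromosome 10, 127290793 to 127296291), which encodes CHOP, a factor that promotes cell death in lasting stress, stood at 32.5, 23.7 and 34.6 CPM with Cre and 40.6, 37.9 and 23.9 CPM without. Control replicates 1 and 2 were above all other libraries, while control replicate 3 lay beside Pax7-CreERT replicate 2 at the bottom. The means were 30.3 ± 5.76 against 34.1 ± 8.95 CPM, with a log2 fold change of -0.15 (95% interval -0.64 to 0.34, SE 0.22, limma adjusted p = 0.941, exact permutation p = 0.5). Without control replicate 3 it was -0.38, with an unadjusted p of 0.0537 and an adjusted p of 0.770, and without Pax7-CreERT replicate 2 it was 0.0099. The CPM of Ddit3 divided by that of Atf4 was 0.0404 ± 0.00454 in the Pax7-CreERT mice and 0.0433 ± 0.00786 in the controls (SD, n = 3 each, exact permutation p = 0.7).

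**Figure D3:**
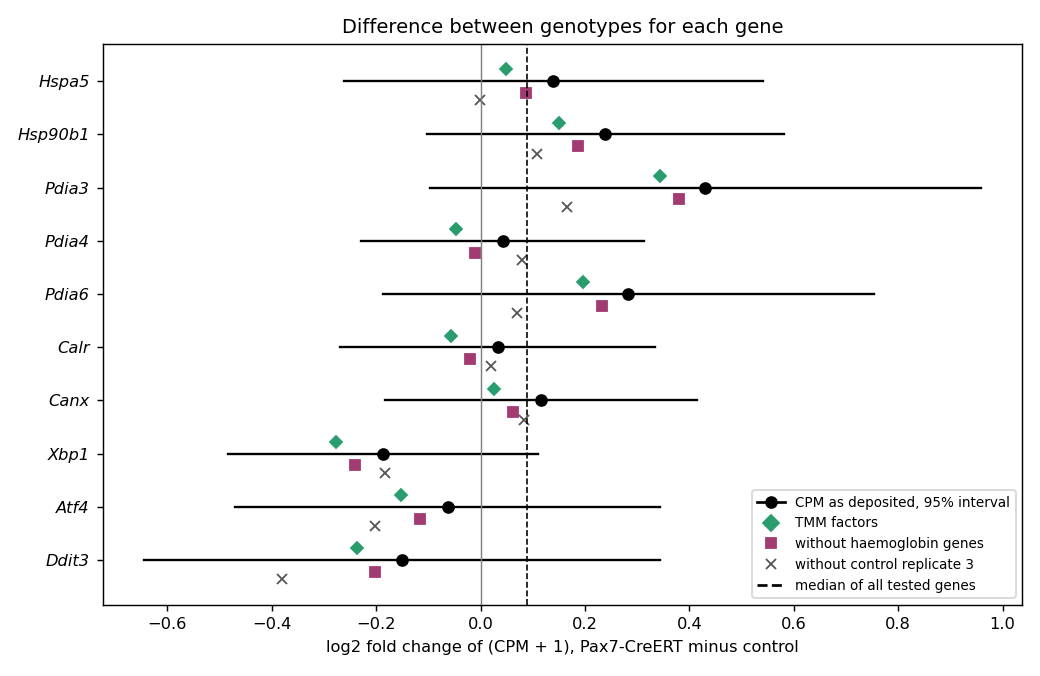
Log2 fold change of each gene, Pax7-CreERT minus control, with its limma 95% interval (black) and the estimates under TMM factors, without haemoglobin genes and without control replicate 3. Every interval includes 0; the dashed line is the median of all tested genes, 0.089, and Pdia3 and Ddit3 move most when control replicate 3 is left out.

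The ER stress genes also differed between mice of the same group, some of them more than others. The coefficient of variation within groups ran from 5.98% for Pdia4 and 7.07% for Calr to 22.9% for Ddit3 and 25.7% for Pdia3. It was above the median of all tested genes, 17.5%, in 3 of the 10, the third being Pdia6. On log2 values centred per gene, the median of the 10 genes was -0.30 in control replicate 3 and -0.04 to 0.14 in the other libraries, while the median of all tested genes there was -0.12. Control replicate 3 was the lowest library for 5 of the 10 genes and for 39.8% of all tested genes. With haemoglobin removed it was the lowest for 4, Hspa5, Hsp90b1, Pdia3 and Pdia6, and for 27.5% of all genes, and on that scale it was the highest for Pdia4 and Xbp1. The low values of some members in this library thus remained after haemoglobin was removed, beside high values of others.

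**Figure D4:**
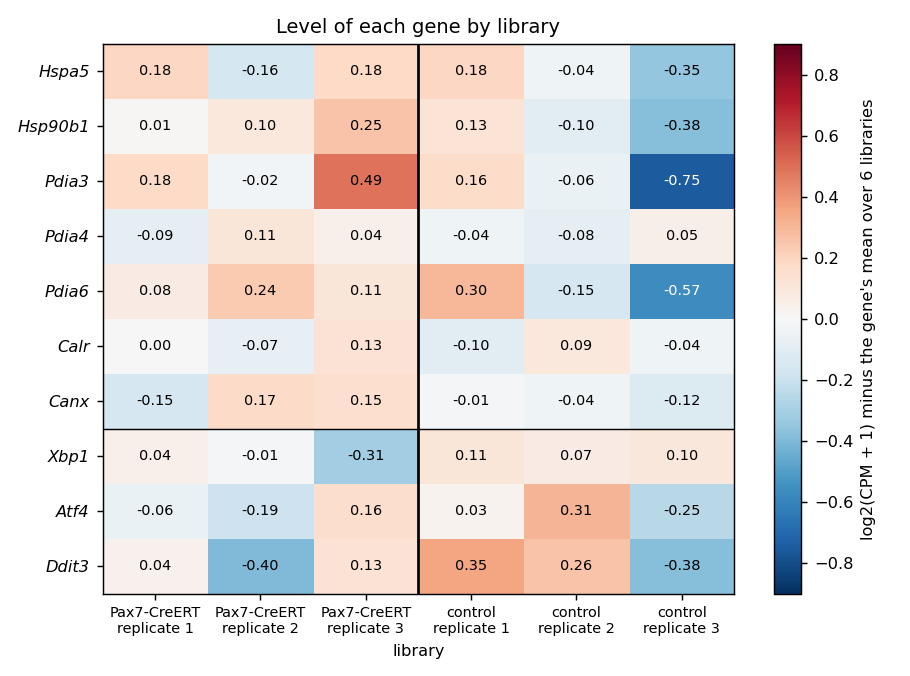
Log2(CPM + 1) of each gene in each library minus the gene's mean over the 6 libraries; red is above and blue below that mean. Control replicate 3 is at -0.75 for Pdia3 and -0.57 for Pdia6 but near 0 for Pdia4 and Calr, and the 3 columns of a genotype do not share a colour in most rows.

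Summed over the 7 chaperones and isomerases, the Pax7-CreERT libraries held 1705, 1599 and 1841 CPM and the controls 1716, 1623 and 1412 CPM, and the groups overlapped. The 3 transcription factors together held 839.7 to 1001 CPM and 824 to 1137 CPM. For the factors the controls held both the highest and the lowest library.

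The wider response was read in 4 lists, each without the 10 genes above, and 0 genes of any of them passed over all genes tested with limma. Values below are means of 3 mice, Pax7-CreERT against control, with their SD, and the log2 fold change in parentheses. Among 20 tested sensors and regulators 15 had a higher and 5 a lower mean log2 value in the Pax7-CreERT mice, against 9 higher and 11 lower with TMM factors (median 0.059, -0.031 with TMM), and 0 had an unadjusted p under 0.05. The sensor gene Ern1 measured 16.6 ± 2.46 against 15.4 ± 3.50 CPM (0.12), Eif2ak3, which encodes PERK, 31.7 ± 2.07 against 33.2 ± 2.62 CPM (-0.065), and Atf6 94.2 ± 12.5 against 91.0 ± 12.3 CPM (0.049). Ppp1r15a, the phosphatase subunit that restores translation, was far more abundant at 747 ± 164 against 689.8 ± 189 CPM (0.13), with wide spread in both groups. The ends of this list were Bax and Eif2ak1. Bax, a pore-forming protein of cell death, measured 5.31 ± 1.65 against 3.73 ± 1.69 CPM (0.44). Eif2ak1, a heme-regulated kinase, measured 36.5 ± 3.62 against 46.1 ± 21.9 CPM (-0.23). Eif2ak1 was highest in control replicate 3, the library rich in haemoglobin, at 69.8 CPM, and the other libraries lay between 26.6 and 42.0.

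Targets of ATF4 and CHOP divided evenly, where 68.0% of all tested genes were higher as deposited and 51.4% with TMM factors. Of 27 tested, 14 had a higher and 13 a lower mean log2 value in the Pax7-CreERT mice, against 14 higher and 13 lower with TMM factors (median 0.083, 0.0026 with TMM). Trib3, a pseudokinase that feeds back on the pathway, measured 7.82 ± 1.33 against 7.06 ± 1.41 CPM (0.13), the asparagine synthetase gene Asns 7.24 ± 0.392 against 8.06 ± 1.64 CPM (-0.12), and Chac1, a glutathione-degrading enzyme, 4.75 ± 2.18 against 4.25 ± 1.67 CPM (0.11). Atf3, a stress-induced transcription factor that tissue dissociation also induces, had the highest fold change of the list, 627 ± 144 against 462 ± 187 CPM (0.51). It was lowest in control replicate 3 at 252 CPM, and the groups overlapped. Leaving out control replicate 3 gave 0.12, and leaving out control replicate 1 gave 0.76. The lowest was Mthfd2, a mitochondrial folate enzyme, at 3.14 ± 0.198 against 9.52 ± 11.8 CPM (-0.74), where control replicate 3 alone held 23.2 CPM and the other 5 libraries 2.67 to 3.36. Without that library its log2 fold change was 0.17. An unadjusted limma p under 0.05 was found for Ddit4 and Bbc3, both lower in the Pax7-CreERT mice and named after their values were seen. Of all tested genes 5.52% were under it, 4.58% higher and 0.942% lower. Bbc3, a death effector called PUMA, had means of 8.74 against 12.8 CPM.

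Other ER chaperones and foldases had a median close to that of all genes. Of 36 tested, 25 had a higher and 11 a lower mean log2 value in the Pax7-CreERT mice, against 18 higher and 18 lower with TMM factors (median 0.089, -0.00062 with TMM). The HSP70-like exchange factor gene Hyou1 measured 49.6 ± 5.39 against 48.0 ± 5.77 CPM (0.046) and P4hb, the disulfide isomerase called PDI, 197 ± 13.4 against 180.3 ± 18.8 CPM (0.13). The BiP co-chaperone genes Dnajb9 and Dnajc3 measured 115 ± 19.97 against 129 ± 28.6 CPM (-0.15) and 182 ± 14.0 against 188 ± 27.4 CPM (-0.046). Manf, a secreted stress factor, measured 36.5 ± 2.41 against 33.0 ± 2.55 CPM (0.15). The ends were Prdx4, the ER peroxiredoxin, at 9.05 ± 0.744 against 5.79 ± 1.67 CPM (0.59), and Fkbp14, a prolyl isomerase for collagen, at 31.9 ± 7.18 against 38.7 ± 6.93 CPM (-0.28). Prdx4 had groups that did not overlap and an unadjusted limma p of 0.0269 (adjusted p = 0.891). Txndc11, named after its values were seen, was the other gene of the list under 0.05, with means of 23.8 against 17.1 CPM. Of the 36 genes 2 were under 0.05 and 2 had groups that did not overlap, all higher. Among all tested genes 4.58% were under 0.05 and higher, and 8.69% had groups that did not overlap and were higher.

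Degradation and translocation genes also had a median near that of all genes, with 27 of 36 tested higher, 9 lower (15 higher and 21 lower with TMM factors), a median of 0.069 (-0.021 with TMM) and 0 with an unadjusted p under 0.05. The ubiquitin ligase complex genes Sel1l and Syvn1 measured 135 ± 11.9 against 131 ± 11.0 CPM (0.040) and 16.4 ± 1.29 against 14.5 ± 2.57 CPM (0.18). Edem1, a lectin that takes misfolded glycoproteins to degradation, measured 82.6 ± 0.534 against 76.6 ± 4.17 CPM (0.11). The groups of Edem1 did not overlap (limma adjusted p = 0.920). That held for 2 of the 36 genes, all higher, against 8.69% of all tested genes. Herpud1, a strongly stress-induced membrane protein, measured 117 ± 5.96 against 127 ± 9.23 CPM (-0.12). The ends of the list were Selenos, a selenoprotein of the degradation complex, at 11.6 ± 1.25 against 8.98 ± 1.94 CPM (0.35), and Sec61b, a subunit of the translocation channel, at 1.76 ± 1.19 against 2.12 ± 0.243 CPM (-0.27).

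**Figure D5:**
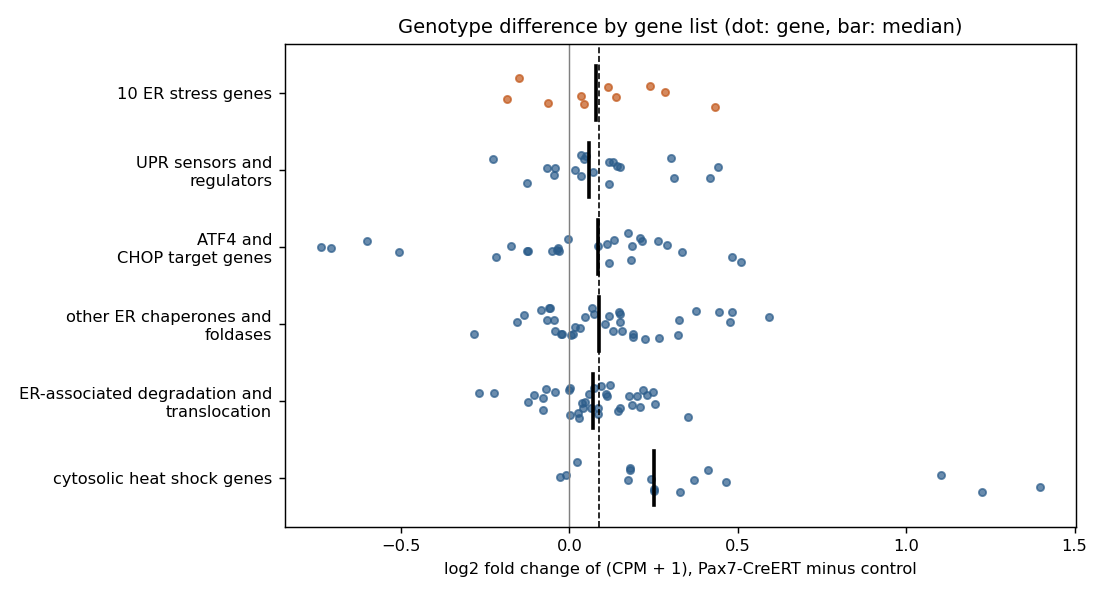
Log2 fold change, Pax7-CreERT minus control, of each tested gene in the 10 ER stress genes (orange) and 5 other lists (blue), with each list's median as a bar and the median of all tested genes as a dashed line. The medians of the ER lists lie between 0.059 and 0.089; the cytosolic heat shock list, at 0.25, has 3 genes above 1.

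The list called cytosolic heat shock genes, many of which answer to the cytosolic stress factor HSF1, is given beside these for contrast. It also holds the gene of HSF1 itself and the mitochondrial chaperonin genes Hspd1 and Hspe1. Of 16 tested, 14 had a higher and 2 a lower mean log2 value (13 higher and 3 lower with TMM factors), with a median of 0.25 (0.16 with TMM). None passed over all genes with limma, and 5 had an unadjusted p under 0.05, Hspa1a, Hspa1b, Hsph1, Hspb1 and Hspd1, all higher, where 4.58% of all genes were under it and higher. The groups did not overlap for 6 of the 16, all higher, against 8.69% of all genes. Their summed level was 6439.98 to 6766 CPM in the Pax7-CreERT mice and 3125 to 4666 CPM in the controls. Hspa1b, an inducible HSP70 gene whose reads can be shared with the near-identical Hspa1a, measured 1655 ± 136 against 645 ± 183 CPM (1.40), and Hspe1, a mitochondrial chaperonin at the other end, 12.5 ± 0.654 against 12.9 ± 2.28 CPM (-0.029). The lumenal HSP70, Hspa5, with 0.14, differed less than Hspa1b in the same libraries; the difference between the 2 genes was not tested.

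Markers of secretory and other cells of these preparations were summed for each whole list, and 0 of those in the table were at 0 in every library. The plasma cell list (9 of 10 markers in the table, 7 tested, Tnfrsf17 missing, Mzb1 and Eaf2 under the filter) summed to 104 to 142 CPM in the Pax7-CreERT mice and 85.5 to 192 CPM in the controls, highest in control replicate 3. Sdc1 alone, with means of 65.8 against 66.3 CPM, held a large part of that sum. Fibro-adipogenic progenitor markers (12 of 12) summed to 3484 to 7159.6 CPM in the Pax7-CreERT mice and 3528 to 5619 CPM in the controls, highest in Pax7-CreERT replicate 1. Macrophage markers (12 of 12) gave 702 to 1025 CPM in the Pax7-CreERT mice and 553 to 1412 CPM in the controls, again highest in control replicate 3. Erythroid markers (13 of 14, Ahsp missing) gave 19262 to 50428 CPM in the Pax7-CreERT mice and 26901 to 134810 CPM in the controls. Mature myofibre genes (16 of 16) gave 2196 to 3149 CPM in the Pax7-CreERT mice and 1075 to 1799 CPM in the controls, without overlap. The groups did not overlap either for pericyte and smooth muscle markers (12 of 12), with 9956 to 12522 CPM in the Pax7-CreERT mice and 7810.2 to 9916 CPM in the controls. The nearest libraries of this list, at 9956 and 9916 CPM, lay close together. Rgs5, whose groups overlapped, held much of the sum, with means of 7506 against 6340 CPM. Nor did the groups overlap for adipocyte markers (8 of 9, Retn missing), with 209 to 258 CPM in the Pax7-CreERT mice and 269 to 326 CPM in the controls. All sums are of CPM as deposited and were not rescaled. The cells in which Pax7 is meant to drive Cre are satellite cells. Satellite cell markers (12 of 12) gave 723 to 791 CPM in the Pax7-CreERT mice and 722 to 839.8 CPM in the controls. Their part in the values of the ER stress genes was not tested.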

How the data were processed

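Trizol RNA was made into SureSelect strand-specific libraries, per the labels' protocols. The deposited table holds 1 column of CPM per library. That it is CPM was read from the values: each column sums to 1000000 plus 0.0001, the lowest value, for each of the 17030 genes. The authors' constant of 0.0001 was subtracted here. The submitters' processing notes name Partek, DESeq2 and mm10 without roles; aligner, counting rule and annotation release are not given in the sources used here, so reads shared between similar genes may have been split.

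Depth was estimated from the CPM of 1 read. Of values up to 20 reads, 92.9% to 93.9% were whole within 0.05 read, under the 95% required, so no count test was run. Counting SDs are those of Poisson sampling of reads.

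Groups were compared with limma 3.58.1 (R 4.3.3, mean-variance trend) on log2(CPM + 1) for the 14763 genes that reached 1 CPM in 3 or more libraries, adjusted by Benjamini-Hochberg, with TMM factors (trimmed mean of M values, computed on the CPM) as 1 of 15 alternatives. The fit was tested on simulated data. Each library was taken as 1 mouse; the labels do not state this outright and give no batch, so p-values measure only the spread between these samples. Exact 2-sided permutation tests (scipy 1.17.1) were run on single values. Gene positions are RefSeq's on GRCm38.p6, the assembly of mm10, and all 10 genes had a promoter in the RefSeq table, in which the stretch after the start was found in a GENCODE transcript of the gene for 8 of the 10, the 5 printed among them, and not for Pdia4 and Xbp1. Transcript lengths are GENCODE M21's. Protein sequences were not analysed here.

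The 10 genes and all lists were chosen with earlier results of these data known. The text names the 10 genes, 17 pathway genes picked by role (Ern1, Eif2ak3, Atf6, Ppp1r15a, Trib3, Atf3, Asns, Chac1, Hyou1, P4hb, Dnajb9, Dnajc3, Manf, Sel1l, Syvn1, Edem1 and Herpud1), the genes at the ends of each pathway and heat shock list, and any gene that passed. Hspa1a, Hsph1, Hspb1, Hspd1, Ddit4, Bbc3, Txndc11, Zfp433, Creld2, Derl3, Ero1b, Alg12, Rgs5 and Sdc1 fall outside that rule and were chosen after their values were seen.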

Additional observations from a re-analysis of the deposited data

How the results depend on the processing

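Under all 15 alternatives 0 of the 10 ER stress genes, 0 of each of the 4 pathway lists and 0 of the heat shock list passed over all genes with limma, as in the report. The lowest adjusted p of the 10 was 0.691 to 0.999. Their median log2 fold change was -0.011 with TMM factors and 0.045 to 0.11 without 1 library, while that of all genes moved from 0.089 to 0.0060 with TMM factors. Without control replicate 1, Hsp90b1, Pdia3 and Pdia6, all higher, had an unadjusted limma p under 0.05, and 0 passed. In that fit 1022 of 14763 genes were under it, 832 higher and 190 lower. Without control replicate 3, 0 of the 10 genes were under it. Over all genes the count of calls was 2 with no filter on low values (Zfp697 and Zfp433) and 0 to 1 without 1 library. Zfp697 did not pass without the limma trend (log2 fold change -1.77, adjusted p = 0.126), where Zfp433 was called instead, or without any library but control replicate 3 (-1.89 to -1.63). Some directions turned, and the cause was not tested. With TMM factors the log2 fold changes were Pdia4 -0.047, Calr -0.057, Atf6 -0.041, Hyou1 -0.042 and Sel1l -0.049; with quantile normalization Pdia4 -0.035, Atf6 -0.028, Chac1 -0.0042, Hyou1 -0.020 and Sel1l -0.026; without the haemoglobin genes Pdia4 -0.011, Calr -0.020, Atf6 -0.0042, Hyou1 -0.0060 and Sel1l -0.013; with array weights Calr -0.0042, Atf6 -0.020, Ppp1r15a -0.064 and Hspe1 0.065. Over the fits that leave out 1 library they ran, for Hspa5 -0.00066 to 0.27, for Pdia4 -0.0013 to 0.10, for Calr -0.023 to 0.087, for Atf4 -0.20 to 0.076, for Ddit3 -0.38 to 0.0099, for Ern1 -0.075 to 0.22, for Atf6 -0.060 to 0.13, for Ppp1r15a -0.11 to 0.33, for Chac1 -0.18 to 0.36, for Hyou1 -0.054 to 0.11, for Dnajc3 -0.14 to 0.064, for Sel1l -0.022 to 0.11, for Eif2ak1 -0.56 to 0.12, for Mthfd2 -1.19 to 0.17, for Sec61b -0.58 to 0.074, for Hspe1 -0.17 to 0.070. No paired analysis was possible because the labels give no replicate numbers and the mice of the groups are different animals. Depth limits the fainter genes: in control replicate 3 the values of Pdia3, Pdia6 and Ddit3 rest on 76, 67 and 97 estimated reads.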

Other observations

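The exact ERSE allows the promoters to be read the other way, from the sequence to the genes, a reading added after the values were seen. Of the genes listed by RefSeq, 37 had the element in a window, and 21 of them were tested here, the 5 described and 16 more. Of these 16, 5 belong to the ER lists: Dnajc3, Creld2, Derl3, Ero1b and Syvn1. Among the 16, 10 had a higher and 6 a lower mean log2 value in the Pax7-CreERT mice, where 68.0% of all tested genes were higher. Their median log2 fold change was 0.14, against 0.089 for all tested genes, and no median with TMM factors is given for these 16. None passed with limma, at an adjusted or an unadjusted p under 0.05. The oxidase gene Ero1b, which reoxidizes the isomerases, measured 15.2 against 11.8 CPM (0.33), and Alg12, a mannosyltransferase that builds the sugar chains read by calnexin and calreticulin, 13.2 against 17.0 CPM (-0.33).

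Of the ATF4 and CHOP targets, Ddit4, an inhibitor of mTORC1 that hypoxia and glucocorticoids also induce, had the smallest unadjusted p. Its means were 70.0 against 105 CPM, with a log2 fold change of -0.60 and groups that did not overlap, but a limma adjusted p of 0.891. Of all tested genes 2.28% had groups that did not overlap and were lower in the Pax7-CreERT mice.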
